A study of Mus musculus with 9 samples.

Results

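The genes described here encode machinery that condenses, attaches, checks and separates chromosomes at mitosis: 51 genes given by name. No measured value served as a rule for the list, but the genes were chosen with earlier results of these data known. They were found in the deposited count table by matching Ensembl identifiers to gene symbols of the GENCODE M21 annotation. All 51 matched, of 45706 identifiers in the table, and all 51 were among the 17971 genes that passed the filter on low counts. The RNA came from tissue labelled as central nervous system, of C57BL6/J mice, an inbred laboratory strain, with no allele and no experimental treatment named in the labels. The part taken differed between stages. There were 3 groups of 3 libraries, named by age: E9.5 and E14.5, days of embryonic development, and P60, postnatal day 60. E9.5 tissue was embryonic head trimmed of most tissue that is not neuroectoderm, E14.5 tissue was brain freed of meninges, and P60 tissue was adult brain taken after anaesthesia with ketamine and xylazine and flushing of the blood with buffered saline. The labels do not say whether the libraries of a stage came from separate animals or pools, so a p-value speaks only of the spread among these libraries, and that spread may be technical.

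As background, a cell enters mitosis when the kinase Cdk1 is switched on by the Cdc25 phosphatases against the brake of Wee1, and Aurora and Polo-like kinases then build the spindle. Condensin and topoisomerase II compact and untangle the chromosomes, cohesin holds the sister chromatids together, and the kinetochore, built on centromere proteins and ending in the Ndc80 complex, grips the microtubules. The spindle assembly checkpoint holds back Cdc20 until every kinetochore is attached, after which securin is destroyed, separase cuts cohesin and the cell divides. In the embryonic brain most such divisions are those of neuroepithelial cells and radial glia, whereas neurons leave the cell cycle for good and in the adult brain few cells divide, chiefly stem cells of restricted niches and glial precursors.

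The libraries held 30481975 to 35619093 counts, and the common dispersion over all genes corresponded to a spread of 19.9% between libraries of a stage. Tissue markers fitted the labels in broad terms: 6 neuron markers summed to 198 to 221 CPM, read counts scaled to a common library total by the TMM method, at E9.5, 5167 to 5508 at E14.5 and 5110 to 5880 at P60. The near-equal sums of the last 2 stages hide opposite courses. At P60 against E14.5, 3 of the 6 were called higher and 3 lower, with log2 fold changes between -7.79 and 4.93, beside 36.7% and 39.4% of all genes. The first E9.5 library alone carried heart muscle transcripts, with 5 cardiac markers at a summed 296 CPM, against 5.07 and 5.04 CPM in the other E9.5 libraries. The first E14.5 library had the highest value of its stage for 37 of the 51 mitotic genes, with a median ratio of 1.26 to the mean of the other E14.5 libraries. The sum of 6 erythroid markers was also highest in the youngest tissue, with 2612 to 3553 CPM at E9.5, 389 to 770 CPM at E14.5 and 7.55 to 28.9 CPM at P60. This sum too hides opposite courses. At E14.5 against E9.5, 4 of the 6 were called lower and 2 higher, beside 30.7% and 34% of all genes. Their log2 fold changes lay between -9.81 and 5.86. The mitotic genes as a group took 1.001% to 1.017% of all counts at E9.5, 0.4094% to 0.4743% at E14.5 and 0.07213% to 0.08044% at P60.

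Nearly all mitotic genes fell at each step, with the larger part of the fall on the log2 scale after E14.5. At E14.5, 49 of the 51 were lower than at E9.5, 1 was higher, the topoisomerase gene Top2b, and 1 was not called, the centromere gene Cenpt. Among all genes tested, 30.7% were called lower and 34% higher in that comparison. The median log2 fold change of the 51 genes was -1.75, against 0.03 over all genes tested, and 42 of them fell at least 2-fold, as did 18.1% of all genes. At P60, 48 were lower than at E14.5, 2 were higher, the securin gene Pttg1 and the anillin gene Anln, and the checkpoint gene Bub3 was not called. Here 39.4% of all genes were called lower and 36.7% higher. The median log2 fold change of the 51 genes was -3.98, against -0.06 over all genes, and 35 of them fell at least 8-fold, as did 7.55% of all genes. These calls came from edgeR's quasi-likelihood test with p-values adjusted over the 17971 genes by the Benjamini-Hochberg method and 0.05 as the threshold, as did every adjusted p given for a gene.

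Over the whole interval, 50 mitotic genes were lower at P60 than at E9.5 and only Pttg1 was higher, beside 40.6% of all genes lower and 42% higher. Their median log2 fold change was -5.71, against 0.05 over all genes, and 41 of them fell at least 8-fold, as did 11.3% of all genes. In 46 of the 51 the fall was called at both steps, a course that 14.6% of all genes took, and in 44 of those 46 the second fall was the larger on the log2 scale. All 3 libraries of the later stage lay below all 3 of the earlier stage for 48 genes at the first step, 48 at the second and 50 over the whole interval, beside 35.1%, 39.4% and 42.1% of all genes. Without the first E14.5 library 48, 48 and 50 genes were called lower, and without the first library of both embryonic stages 49, 48 and 50. In whole tissue, fewer dividing cells and less of these transcripts per cell cannot be told apart.

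**Figure D1:**
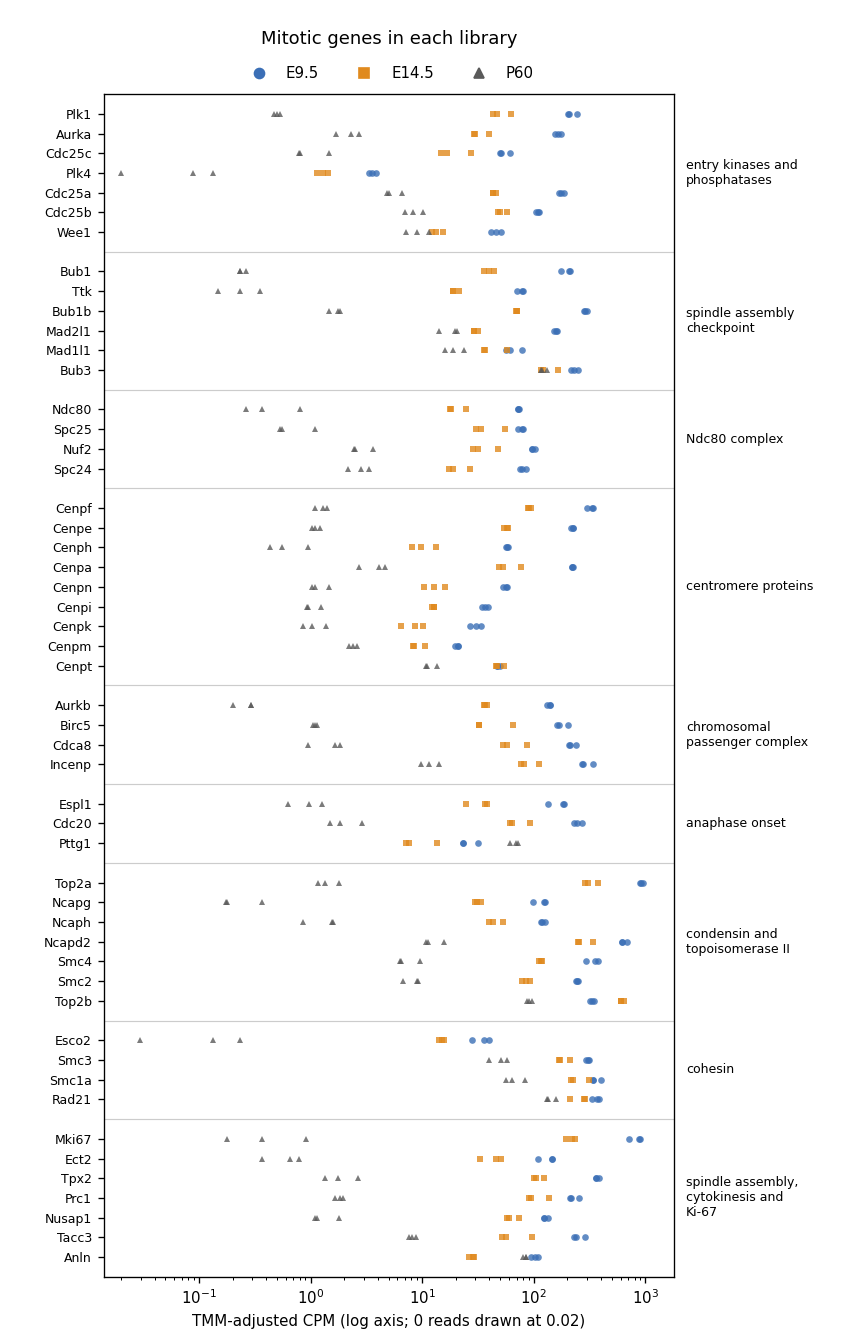
Level of each of the 51 mitotic genes in each of the 9 libraries, as TMM-adjusted CPM on a log axis, grouped by role; circles are E9.5, squares E14.5 and triangles P60, and a library without reads is drawn at 0.02 CPM. The P60 libraries lie left of both embryonic stages for most genes, and right of the E14.5 libraries for Pttg1 and Anln.

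What remained at P60 spread the 51 genes over more than 3 orders of magnitude. Measured against its own E9.5 mean, the median gene stood at 29.7% at E14.5 and at 1.89% at P60. At P60, 20 genes were under 1% of their E9.5 mean, 19 lay between 1% and 10%, and 12 kept 10% or more. The lowest was Mki67, the gene of the proliferation marker Ki-67, at 0.0585%, followed by the checkpoint kinase gene Bub1 at 0.124% and the topoisomerase gene Top2a at 0.156%. The 12 that kept 10% or more were Mad2l1, Cenpm, Smc3, Smc1a, Wee1, Cenpt, Top2b, Mad1l1, Rad21, Bub3, Anln and Pttg1. At E14.5 the range was smaller, between 17.9% for Cenph and 185.7% for Top2b, and 42 of the 51 stood between 15% and 50% of their E9.5 mean.

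**Figure D2:**
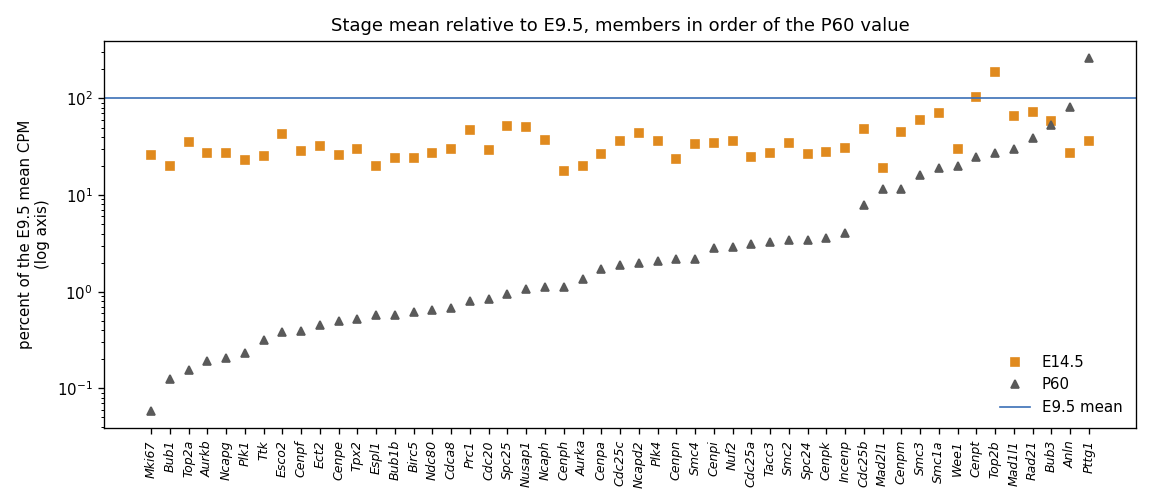
Mean CPM of each mitotic gene at E14.5 (squares) and P60 (triangles) as a percentage of its own E9.5 mean, on a log axis, with the genes ordered by the P60 value. At E14.5, 42 of the 51 genes lie between 15% and 50%, with a median of 29.7% and Top2b highest at 185.7%, while the P60 values run between 0.0585% for Mki67 and 260.6% for Pttg1.

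Promoter sequences were set beside these courses because mitotic genes are known to be regulated together through 2 promoter elements: the cell cycle genes homology region (CHR), read by the MuvB complexes, and CCAAT boxes, bound by NF-Y. RefSeq promoters of the GRCm38.p6 build, 250 bases before to 50 after the start, were found for 42 of the 51 genes, 48 promoters in all. TTTGAA, the CHR core, stood on either strand in 24 of the 48 promoters, beside 17.9% of all 32851 promoters in the table. CCAAT was present in 34, or 70.8%, beside 37.4% of all promoters. Both motifs stood together in 22 promoters, or 45.8%, beside 6.95% of all. An E2F core, spelled TTCGCGC or, in its other form, TTGGCGC, was present in 6 promoters, or 12.5%, beside 3.89% of all. In the 14 promoters found for a list of 18 DNA replication genes the E2F core was present in 42.9% and TTTGAA in 21.4%. None of the 3 motifs as spelled contains another. A match of these letters is a description and not a shown binding site.

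The 150 bases before the start are given for 8 genes with a single promoter entry, 4 that fell steeply and 4 that took another course. Of the second 4, 3 have a counterpart among the first 4: Top2a and Top2b encode the 2 forms of topoisomerase II, Espl1 and Pttg1 encode separase and its inhibitor securin, and Mki67 and Anln both encode proteins best known from dividing cells. Cdc20 and Cenpt were not matched in this way. The stretches are written 5′ to 3′ on the gene's own strand, with matches to any of the 3 motifs on either strand in capitals, so that ATTGG marks a CCAAT box and TTCAAA marks a CHR core on the opposite strand. The stretches of genes that fell steeply were Top2a at chr11:99024190-99024339 on the minus strand, Mki67 at chr7:135716380-135716529 on the minus strand, Cdc20 at chr4:118437344-118437493 on the minus strand and Espl1 at chr15:102296143-102296292 on the plus strand.
Top2a: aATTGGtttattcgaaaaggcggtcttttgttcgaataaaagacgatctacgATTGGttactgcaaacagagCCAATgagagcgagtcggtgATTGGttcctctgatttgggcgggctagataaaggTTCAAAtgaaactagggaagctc
Mki67: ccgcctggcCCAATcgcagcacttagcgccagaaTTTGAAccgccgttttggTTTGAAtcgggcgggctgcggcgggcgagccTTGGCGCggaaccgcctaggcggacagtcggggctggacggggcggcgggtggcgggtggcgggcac
Cdc20: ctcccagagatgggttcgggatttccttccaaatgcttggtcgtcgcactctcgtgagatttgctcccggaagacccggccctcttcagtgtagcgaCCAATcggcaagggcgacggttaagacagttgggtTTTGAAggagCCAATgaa
Espl1: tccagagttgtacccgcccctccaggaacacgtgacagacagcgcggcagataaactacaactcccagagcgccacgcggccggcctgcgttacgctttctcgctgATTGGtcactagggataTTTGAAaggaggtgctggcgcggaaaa
The stretches of the other 4 genes were Top2b at chr14:16365056-16365205 on the plus strand, Pttg1 at chr11:43425982-43426131 on the minus strand, Anln at chr9:22389207-22389356 on the minus strand and Cenpt at chr8:105852009-105852158 on the minus strand.
Top2b: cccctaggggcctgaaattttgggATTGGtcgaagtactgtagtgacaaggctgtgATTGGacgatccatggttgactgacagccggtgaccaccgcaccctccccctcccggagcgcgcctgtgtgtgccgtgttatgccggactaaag
Pttg1: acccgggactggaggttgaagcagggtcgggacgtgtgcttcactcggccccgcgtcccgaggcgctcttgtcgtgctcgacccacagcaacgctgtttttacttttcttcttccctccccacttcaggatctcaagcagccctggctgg
Anln: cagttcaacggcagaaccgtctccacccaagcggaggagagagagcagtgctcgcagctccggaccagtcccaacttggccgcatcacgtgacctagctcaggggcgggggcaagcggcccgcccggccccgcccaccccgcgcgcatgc
Cenpt: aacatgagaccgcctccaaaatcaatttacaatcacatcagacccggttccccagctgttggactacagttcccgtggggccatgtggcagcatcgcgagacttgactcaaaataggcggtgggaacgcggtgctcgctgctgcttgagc
All 4 steeply falling genes held TTTGAA within these 150 bases, with its first base at position -23 in Top2a, -116 and -98 in Mki67, -18 in Cdc20 and -27 in Espl1, counted back from the start. Each of them also held at least 1 CCAAT. Of the other 4, Top2b held 2 CCAAT and no TTTGAA, and Pttg1, Anln and Cenpt held neither there, although Anln had TTTGAA after its start, at positions 22 and 29. The start is that of the RefSeq promoter entry. The stretches of Pttg1 and Cenpt lie wholly inside these genes as placed by GENCODE M21, Cenpt at chr8:105844673-105853278. For these 2 genes the bases before the annotated 5′ end were thus not searched. The stretches of Cdc20, Espl1 and Top2b overlap the annotated gene in part. The 8 genes do not stand for the whole set, and the contrast between them depends on which genes were shown. Bub3, which also took another course, has more than 1 promoter entry and is not shown. It held TTTGAA before the start, at positions -167 and -43 over its entries. These positions may be 1 site counted from different starts. Of the 37 members with a single promoter entry, 8 held TTTGAA within these 150 bases and 29 did not. Among the 29 were Bub1, Plk1 and Ttk, with log2 fold changes of -9.63, -8.75 and -8.27 at P60 against E9.5. Of these, Plk1 and Ttk had TTTGAA after the start, at positions 31 and 8, and Bub1 had it nowhere in the promoter.

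The split was not clean over the whole set. The 21 genes with TTTGAA anywhere in the promoter had a median log2 fold change of -7.22 between P60 and E9.5, and the 21 without it had -4.94, as a description with no test. Bub3 and Anln, which changed least, were among those with a match, and Bub1 was among those without.

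The 7 genes of entry kinases and phosphatases all fell at both steps, with a median log2 fold change of -1.75 at E14.5 against E9.5 and -3.86 at P60 against E14.5. Plk1, the Polo-like kinase that drives centrosome maturation and spindle assembly, fell most. It had 246, 205 and 201 CPM in the E9.5 libraries, 62.3, 42.6 and 46.9 CPM in the E14.5 libraries and 0.533, 0.499 and 0.471 CPM in the P60 libraries, so that the stages did not overlap and each P60 library held under 1 CPM. The log2 fold change of Plk1 was -2.10 ± 0.17 (adjusted p = 1.3e-06) at E14.5 against E9.5 and -6.65 ± 0.23 (adjusted p = 5e-09) at P60 against E14.5, where ± is the standard error of the fit.

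Wee1, the kinase that restrains Cdk1, kept the most of this group. It had 41.4, 50.4 and 45.8 CPM in the E9.5 libraries, 12.2, 13.3 and 15.4 CPM in the E14.5 libraries and 9.07, 11.5 and 7.1 CPM in the P60 libraries, and its P60 libraries lay close under those of E14.5. Its log2 fold change was -1.75 ± 0.19 (adjusted p = 1.2e-05) at the first step and -0.56 ± 0.19 (adjusted p = 0.018) at the second, a 1.47-fold fall. The second call rested on single libraries, since adjusted p was 0.071 without the third E14.5 library, 0.052 without the first P60 library and 0.064 without the third. That call was also lost under upper quartile scaling, with adjusted p of 0.053. The activating phosphatase genes Cdc25a, Cdc25b and Cdc25c were 32.4-fold, 12.8-fold and 52.4-fold lower at P60 than at E9.5. Aurka, the Aurora kinase of the spindle poles, was 73.5-fold lower, with mean levels of 165 ± 9.48, 32.6 ± 6 and 2.23 ± 0.508 CPM at E9.5, E14.5 and P60 (SD, n = 3 each).

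Plk4, the kinase that starts centriole duplication, was the scarcest of the 51 genes per transcript length at every stage, with means of 1.87 ± 0.191, 0.751 ± 0.104 and 0.0272 ± 0.0254 TPM (transcripts scaled to a common total per library) at E9.5, E14.5 and P60. It had 3.58, 3.35 and 3.86 CPM in the E9.5 libraries, 1.3, 1.43 and 1.15 CPM in the E14.5 libraries and 0.133, 0 and 0.0884 CPM in the P60 libraries. Those P60 values rest on 4, 0 and 3 reads. For the second P60 library, which had no read, a count of 0 allows up to 0.0881 CPM at a floor of 3 counts, counting error only. The fall at the second step was still called, at -4.10 ± 0.49 (adjusted p = 2e-05).

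Among the 6 spindle assembly checkpoint genes, the 2 kinase genes fell furthest. Bub1, the kinase that recruits the checkpoint to kinetochores, had 176, 207 and 209.8 CPM in the E9.5 libraries, 44.1, 35.5 and 40.04 CPM in the E14.5 libraries and 0.233, 0.235 and 0.265 CPM in the P60 libraries. All P60 libraries held Bub1 within a narrow range below 0.3 CPM, on 7, 8 and 9 reads. Bub1 changed by -2.31 ± 0.14 (adjusted p = 1.8e-07) on the log2 scale at the first step and -7.32 ± 0.20 (adjusted p = 3.4e-09) at the second. Ttk, the kinase also called Mps1, and Bub1b, which encodes the checkpoint inhibitor BubR1, fell with it, with log2 fold changes of -6.31 and -5.37 at the second step.

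Bub3, the adaptor that Bub1 and BubR1 share, did not follow them. It had 251, 228 and 216 CPM in the E9.5 libraries, 165, 122 and 117 CPM in the E14.5 libraries and 119, 117 and 133 CPM in the P60 libraries, and the P60 and E14.5 libraries overlapped. Bub3 fell at the first step, with a log2 fold change of -0.78 ± 0.16 (adjusted p = 0.0013), and was not called at the second, at -0.13 ± 0.16 (adjusted p = 0.46), a sign that turned to 0.03 under upper quartile scaling and to 0.04 without the first E14.5 library.

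Mad2l1, the Mad2 protein that directly inhibits Cdc20, took yet another course: it had one of the larger first falls, -2.39 ± 0.16 (adjusted p = 3.6e-07), and a small second fall, -0.73 ± 0.16 (adjusted p = 0.0014). Its libraries held 150.5, 161 and 159 CPM in the E9.5 libraries, 31.9, 28.9 and 28.9 CPM in the E14.5 libraries and 19.8, 14.1 and 20.3 CPM in the P60 libraries, without overlap between stages. Mad1l1, the Mad1 protein that anchors Mad2 at kinetochores, had log2 fold changes of -0.60 ± 0.22 (adjusted p = 0.034) and -1.13 ± 0.23 (adjusted p = 0.0009) at the 2 steps. Its libraries at E14.5 and E9.5 overlapped, and the first call was lost without the first or the third E9.5 library, the second or the third E14.5 library or the first P60 library, with adjusted p of 0.051 to 0.13. That call was also lost under scaling by library totals, with adjusted p of 0.054.

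The 4 subunits of the Ndc80 complex, a rod that binds microtubules at the outer kinetochore, all fell at both steps. Ndc80, at the microtubule-binding end, had 72.9, 72.5 and 73.6 CPM in the E9.5 libraries, 24.5, 17.6 and 18.2 CPM in the E14.5 libraries and 0.367, 0.264 and 0.796 CPM in the P60 libraries, and its P60 counts were 11, 9 and 27 reads. On the log2 scale Ndc80 changed by -1.86 ± 0.24 (adjusted p = 4.3e-05) at the first step and -5.38 ± 0.31 (adjusted p = 9.6e-08) at the second. Spc24, at the end that faces the centromere, had 85.7, 77.7 and 75.6 CPM in the E9.5 libraries, 26.8, 17.3 and 18.8 CPM in the E14.5 libraries and 2.8, 2.14 and 3.33 CPM in the P60 libraries and log2 fold changes of -1.93 ± 0.20 (adjusted p = 9.9e-06) and -2.93 ± 0.22 (adjusted p = 5.8e-07). Neither gene overlapped between stages.

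Fitted changes differed in size between the partners within each end, a difference that was not tested. Over the whole interval Nuf2, the partner of Ndc80, had a log2 fold change of -5.10, against -7.24 for Ndc80, and Spc25, the partner of Spc24, had -6.71, against -4.85 for Spc24. Per transcript length, in TPM, the E9.5 means were 40.05 for Ndc80, 55.3 for Nuf2, 110.0 for Spc24 and 85.7 for Spc25, a range of under 3-fold.

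Of the 9 centromere protein genes, 8 were lower at E14.5 than at E9.5, and all 9 were lower at P60 than at E14.5. Cenpf, a large protein of the outer kinetochore and nuclear envelope, fell most over the whole interval. It had 303, 339 and 332 CPM in the E9.5 libraries, 89.3, 90.6 and 95.3 CPM in the E14.5 libraries and 1.4, 1.09 and 1.3 CPM in the P60 libraries, with log2 fold changes of -1.82 ± 0.13 (adjusted p = 5.9e-07) and -6.18 ± 0.17 (adjusted p = 2.9e-09) at the 2 steps. Cenpe, the kinesin that carries chromosomes to the spindle equator, was 198-fold lower at P60 than at E9.5. Cenpa, the histone H3 variant that marks the centromere, was 57.9-fold lower.

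The inner kinetochore genes, whose products sit on the centromere throughout the cell cycle, covered a wide range. Cenph had the largest first fall of the 51 genes, -2.48 ± 0.23 (adjusted p = 4e-06), with 13.2, 8.09 and 9.69 CPM at E14.5, against 58.1, 56.3 and 58.6 CPM at E9.5. Over the whole interval Cenph, Cenpi, Cenpk, Cenpn and Cenpm were 88.2-fold, 35.1-fold, 27.6-fold, 46.2-fold and 8.55-fold lower.

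Cenpt, which links centromeric DNA to the Ndc80 complex, stood apart at E14.5. It had 49.9, 46.6 and 46.3 CPM in the E9.5 libraries, 54.4, 45.7 and 46.5 CPM in the E14.5 libraries and 10.9, 13.5 and 11 CPM in the P60 libraries, so that the 2 embryonic stages overlapped and the P60 libraries lay below both. For Cenpt the log2 fold change was 0.04 ± 0.14 (adjusted p = 0.82) at E14.5 against E9.5, turning to -0.04 without the first E14.5 library or under RLE scaling and to -0.03 with DESeq2, and -2.05 ± 0.14 (adjusted p = 3.8e-07) at P60 against E14.5.

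The 4 genes of the chromosomal passenger complex, which corrects faulty kinetochore attachments and later directs cytokinesis, fell by similar amounts at the first step, with log2 fold changes between -2.03 and -1.72, and then diverged. Aurkb, its kinase, had 130.0, 140.0 and 139 CPM in the E9.5 libraries, 36.4, 36.1 and 38.1 CPM in the E14.5 libraries and 0.2, 0.294 and 0.295 CPM in the P60 libraries, with a log2 fold change of -7.10 ± 0.19 (adjusted p = 2.9e-09) at the second step. Incenp, the scaffold that binds the other 3 proteins, had 340.0, 277 and 272 CPM in the E9.5 libraries, 112, 76.4 and 81.8 CPM in the E14.5 libraries and 11.6, 14.2 and 9.84 CPM in the P60 libraries, with -2.92 ± 0.21 (adjusted p = 3.8e-07). Per transcript length, P60 tissue held 7.34 ± 2.05 TPM of the scaffold and 0.237 ± 0.058 TPM of the kinase (SD, n = 3). Birc5, which encodes survivin, and Cdca8, which encodes borealin, lay between them at -5.30 and -5.47. Birc5 also showed the largest excess of the first E14.5 library, 64.9, 32.1 and 32.4 CPM across that stage.

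At anaphase onset, separase and its 2 regulators did not keep a common course. Espl1, the gene of separase, the protease that cuts cohesin, had 134, 186 and 182 CPM in the E9.5 libraries, 24.5, 36.9 and 37.9 CPM in the E14.5 libraries and 0.633, 1.26 and 0.972 CPM in the P60 libraries, with log2 fold changes of -2.34 ± 0.23 (adjusted p = 7.2e-06) and -5.10 ± 0.29 (adjusted p = 8.2e-08). Cdc20, the activator of the anaphase-promoting complex, had 272, 244 and 230.0 CPM in the E9.5 libraries, 92.2, 61.1 and 63.6 CPM in the E14.5 libraries and 1.83, 1.5 and 2.89 CPM in the P60 libraries, with log2 fold changes of -1.78 ± 0.23 (adjusted p = 4.7e-05) and -5.12 ± 0.27 (adjusted p = 6.1e-08). For both genes the stages did not overlap and P60 levels were under 3 CPM.

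Pttg1 encodes securin, which inhibits separase until anaphase, and lies at chr11:43420250-43426251, minus strand (GRCm38). It had 31.7, 23 and 23.1 CPM in the E9.5 libraries, 13.5, 7.64 and 7.16 CPM in the E14.5 libraries and 69.6, 60.8 and 72.3 CPM in the P60 libraries. The E14.5 libraries were lowest, the P60 libraries were highest, and no stage overlapped another. Its log2 fold change was -1.46 ± 0.24 (adjusted p = 0.00033) at E14.5 against E9.5, 2.84 ± 0.25 (adjusted p = 2.1e-06) at P60 against E14.5, a 7.17-fold rise, and 1.38 ± 0.24 (adjusted p = 0.00024) at P60 against E9.5. The rise between E14.5 and P60 lay between 2.67 and 3.18 on the log2 scale when any 1 library was left out. Per transcript length Pttg1 averaged 45.8 ± 6.36, 18.4 ± 4.8 and 88.8 ± 0.826 TPM at E9.5, E14.5 and P60, second only to the cohesin gene Rad21 among the 51 genes at P60. No other gene of the 51 was higher at P60 than at E9.5.

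**Figure D3:**
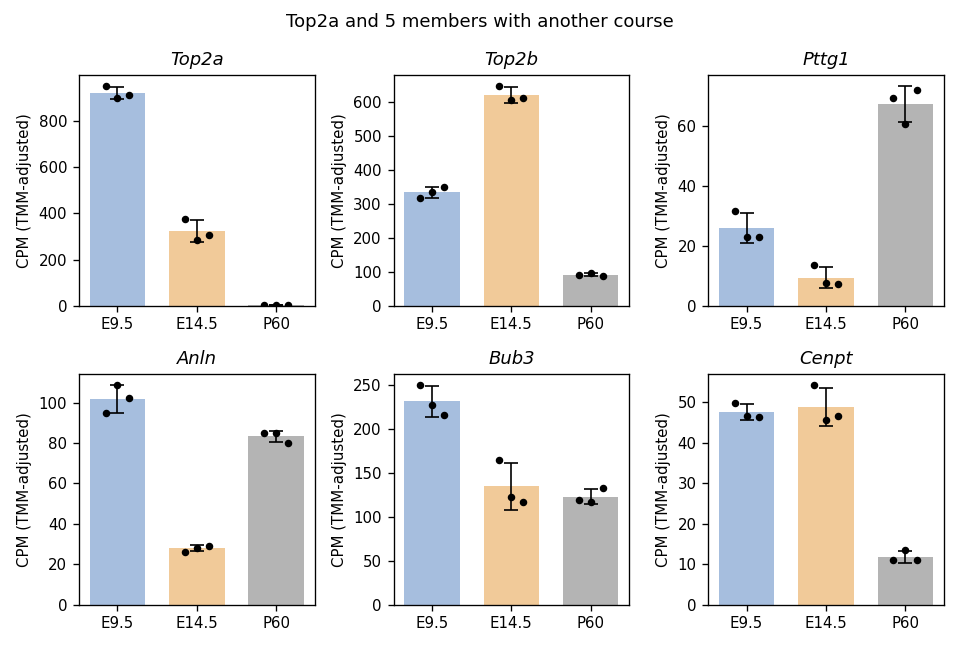
TMM-adjusted CPM of Top2a and of the 5 genes not called lower at both steps, by stage; bars are means, error bars the SD of 3 libraries, and points the single libraries, each panel with its own linear axis that starts at 0. Top2a is close to 0 at P60, Top2b is highest at E14.5, Pttg1 is highest at P60, and Anln is low at E14.5 only.

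All 5 condensin genes fell at both steps. Ncapg, a subunit of condensin I, fell most of them, with a log2 fold change of -8.91 over the whole interval, and Smc2, an ATPase shared by condensin I and II, fell least, with -4.87. The other ATPase, Smc4, had 294, 350.1 and 374 CPM in the E9.5 libraries, 115, 111 and 119 CPM in the E14.5 libraries and 6.3, 9.58 and 6.45 CPM in the P60 libraries, and Ncaph, the subunit that closes the condensin I ring, had 125, 119 and 117 CPM in the E9.5 libraries, 52.7, 40.1 and 42.8 CPM in the E14.5 libraries and 1.6, 1.56 and 0.855 CPM in the P60 libraries. Ncapd2, the remaining condensin I subunit, averaged 639 ± 44, 279 ± 51.5 and 12.5 ± 2.66 CPM at E9.5, E14.5 and P60.

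The 2 topoisomerase II genes parted at both steps. Top2a, which untangles chromosomes in dividing cells and lies at chr11:98992943-99024189, minus strand, had 952, 898 and 912 CPM in the E9.5 libraries, 375, 285 and 308 CPM in the E14.5 libraries and 1.17, 1.79 and 1.36 CPM in the P60 libraries. Top2b, the form known also from cells that have left the cycle, neurons among them, lies at chr14:16365179-16435462, plus strand, and had 318, 334 and 349.6 CPM in the E9.5 libraries, 646, 603 and 609.7 CPM in the E14.5 libraries and 90.2, 96 and 87.4 CPM in the P60 libraries. Thus Top2b was highest in all E14.5 libraries, where Top2a was already reduced, and P60 libraries were the lowest for both genes. The log2 fold changes at E14.5 against E9.5 were -1.51 ± 0.17 (adjusted p = 1.6e-05) for Top2a and 0.89 ± 0.12 (adjusted p = 8.8e-05) for Top2b. At P60 against E14.5 they were -7.80 ± 0.23 (adjusted p = 3.5e-09) for Top2a and -2.76 ± 0.13 (adjusted p = 2.8e-08) for Top2b. The rise of Top2b ran beside that of the 6 neuron markers, all of which were called higher at E14.5 than at E9.5, beside 34% of all genes. At P60, where Top2b had fallen, the same markers summed to 5110 to 5880 CPM, against 5167 to 5508 CPM at E14.5, a mix of rises and falls as given above. The part of neurons in the course of Top2b was not tested. Exons of Top2b share 12.3% of their bases with Rarb on the opposite strand, and the strand setting of the counts is not given in the sources used here.

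The cohesin genes, apart from Esco2, fell less than most. Its 3 ring subunits, Smc1a, Smc3 and Rad21, which also shape chromatin loops in cells that do not divide, kept 18.9%, 16.2% and 39.3% of their E9.5 mean at P60. Rad21, the subunit that separase cuts, had 331, 381 and 371 CPM in the E9.5 libraries, 213, 282 and 288 CPM in the E14.5 libraries and 132, 159 and 135 CPM in the P60 libraries, with log2 fold changes of -0.47 ± 0.16 (adjusted p = 0.022) and -0.88 ± 0.16 (adjusted p = 0.00042). Smc3 had 313, 306 and 295 CPM in the E9.5 libraries, 212, 171 and 169 CPM in the E14.5 libraries and 50.9, 57.6 and 39.8 CPM in the P60 libraries. For both genes the P60 libraries lay below all embryonic libraries, and the E14.5 libraries lay below all E9.5 libraries.

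The small first falls of Rad21 and Smc1a, as that of Mad1l1 above, were calls that rested on single libraries and on the processing. The call of Rad21 was lost without the first E14.5 library or the second or the third E9.5 library, with adjusted p of 0.056 to 0.080. For Smc1a, at -0.51 ± 0.19 (adjusted p = 0.037), it was lost without any 1 of the 3 E9.5 libraries, without the second or the third E14.5 library or without the first P60 library, with adjusted p of 0.055 to 0.14. With all 9 libraries, both calls were also lost under scaling by library totals and without the filter on low counts. There adjusted p was 0.069 for Rad21 and 0.064 for Smc1a under either setting.

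Esco2, the acetyltransferase that locks cohesin onto newly copied DNA, fell further than the ring subunits. It had 28.1, 35.7 and 39.7 CPM in the E9.5 libraries, 14, 15.1 and 15.6 CPM in the E14.5 libraries and 0.133, 0.235 and 0.0295 CPM in the P60 libraries, and its P60 values rest on 4, 8 and 1 reads. Its log2 changes were -1.21 ± 0.23 (adjusted p = 0.00071) at the first step and -6.77 ± 0.35 (adjusted p = 4.9e-08) at the second, and its P60 libraries lay far below both embryonic stages.

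The 7 genes of spindle assembly, cytokinesis and Ki-67 all fell at the first step, and 6 of them fell at the second. Mki67 encodes the protein that coats mitotic chromosomes, and lies at chr7:135689784-135716361, minus strand. It had 709.9, 901 and 874 CPM in the E9.5 libraries, 194, 220.5 and 234 CPM in the E14.5 libraries and 0.367, 0.911 and 0.177 CPM in the P60 libraries, with 11, 31 and 6 reads at P60. The drop at the second step, -8.78 ± 0.42 (adjusted p = 2.8e-08) or 439-fold, was the steepest of the 51 genes. Tpx2, which activates Aurora A on the spindle, Prc1, which bundles the central spindle, Ect2, which switches on the contractile ring, and Nusap1, a microtubule-binding protein, were 189.9-fold, 124-fold, 218-fold and 93.7-fold lower at P60 than at E9.5. Tacc3, a spindle pole and kinetochore fibre protein, was 30.7-fold lower and kept 8.83, 8.02 and 7.6 CPM at P60.

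Anln, at chr9:22332012-22389188, minus strand, encodes anillin, a scaffold of the contractile ring that in mouse is also a protein of myelin, where it holds septin filaments. It had 94.9, 109 and 102 CPM in the E9.5 libraries, 26.1, 28.3 and 29.2 CPM in the E14.5 libraries and 84.9, 84.9 and 80.2 CPM in the P60 libraries, so that only the E14.5 libraries were low. Its log2 fold change was -1.87 ± 0.12 (adjusted p = 3.3e-07) at E14.5 against E9.5 and 1.58 ± 0.12 (adjusted p = 8.2e-07) at P60 against E14.5, a 2.99-fold rise. At P60 against E9.5 it was -0.29 ± 0.12 (adjusted p = 0.042), and this small difference was lost under 10 of 18 alternatives, including the removal of the second or the third E9.5 library, the second or the third E14.5 library, or the first or the third P60 library, with adjusted p of 0.0504 to 0.30 over the 10. Beside the rise of Anln, 6 oligodendrocyte markers, all higher at P60 than at E14.5, summed to 13575 to 15876 CPM at P60, against 64.0 to 88.6 CPM at E14.5, and none of the 6 was at 0 in any library. Of all genes, 36.7% were called higher in that comparison. At E9.5, where Anln was slightly higher than at P60, the same markers summed to 60.9 to 62.7 CPM. Their part in the course of Anln was not tested.

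The order of levels per transcript length changed between the embryo and the adult. At E9.5 the highest of the 51 genes were Cdc20 at 473 ± 16.2 TPM, Top2a at 364 ± 10.9 TPM, Ncapd2 at 362 ± 7.54 TPM and Plk1 at 351 ± 21.3 TPM (SD, n = 3). At P60 the highest were Rad21 at 89.2 ± 17.5 TPM, Pttg1 at 88.8 ± 0.826 TPM, Bub3 at 46.3 ± 2.36 TPM and Smc1a at 31.6 ± 9.42 TPM. Cdc20, first at E9.5, stood at rank 19 at P60 with 2.88 ± 0.779 TPM, and Mki67, at rank 6 at E9.5, stood at rank 48 at P60. At P60 the difference between Rad21 and Pttg1 was smaller than the spread of Rad21 between libraries.

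Pairs of related genes show the change of composition within each library; these ratios are not per length, so only their change between stages is read. The log2 ratio of CPM + 1 was taken for 6 pairs. The pairs were chosen with earlier results of these data known, so their ratios are a description and no p is given. For Top2a over Top2b the ratio was 1.58, 1.43 and 1.38 in the E9.5 libraries, -0.78, -1.08 and -0.98 in those of E14.5 and -5.40, -5.12 and -5.23 in those of P60. The ratio dropped at each step, and no library overlapped another stage. Smc4 of condensin over Smc3 of cohesin averaged 0.15 ± 0.22, -0.67 ± 0.19 and -2.58 ± 0.21 at E9.5, E14.5 and P60 (SD, n = 3 each).

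The next 3 pairs set a mitotic gene against a partner that works outside mitosis as well, and in all of them the mitotic gene lost ground. Cdc20 was compared with Fzr1, which activates the anaphase-promoting complex in late mitosis and G1 and in neurons. Fzr1 had 151, 142 and 138 CPM in the E9.5 libraries, 155, 129 and 124 CPM in the E14.5 libraries and 82.1, 95.5 and 80.6 CPM in the P60 libraries, and the log2 ratio of Cdc20 to Fzr1 averaged 0.79 ± 0.06, -0.92 ± 0.17 and -4.85 ± 0.44. Ncaph was compared with Ncaph2, its counterpart in condensin II, which had 280.1, 231 and 228 CPM in the E9.5 libraries, 181, 137 and 131 CPM in the E14.5 libraries and 222, 176 and 221 CPM in the P60 libraries. Their ratio averaged -1.02 ± 0.12, -1.70 ± 0.09 and -6.48 ± 0.40. Esco2 was compared with Esco1, the cohesin acetyltransferase active throughout the cell cycle, which had 17.6, 22.7 and 21.8 CPM in the E9.5 libraries, 19.5, 20.6 and 21.3 CPM in the E14.5 libraries and 19.5, 19.1 and 20.7 CPM in the P60 libraries and was not called at either step. Their ratio averaged 0.70 ± 0.11, -0.43 ± 0.01 and -4.20 ± 0.19.

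Between the phosphatases, Cdc25b had 109, 110.3 and 106 CPM in the E9.5 libraries, 58.1, 47.7 and 49.96 CPM in the E14.5 libraries and 7.03, 10.2 and 8.19 CPM in the P60 libraries and Cdc25c had 61.5, 50.02 and 50.5 CPM in the E9.5 libraries, 27.3, 14.8 and 16.7 CPM in the E14.5 libraries and 0.8, 0.793 and 1.47 CPM in the P60 libraries. Their log2 ratio averaged 1.00 ± 0.16, 1.40 ± 0.30 and 2.23 ± 0.38 (SD, n = 3 each). The difference between P60 and E9.5 was 1.23 with a pseudocount of 1 CPM. It grew to 1.80 with 0.25 CPM and shrank to 0.35 with 4 CPM.

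**Figure D4:**
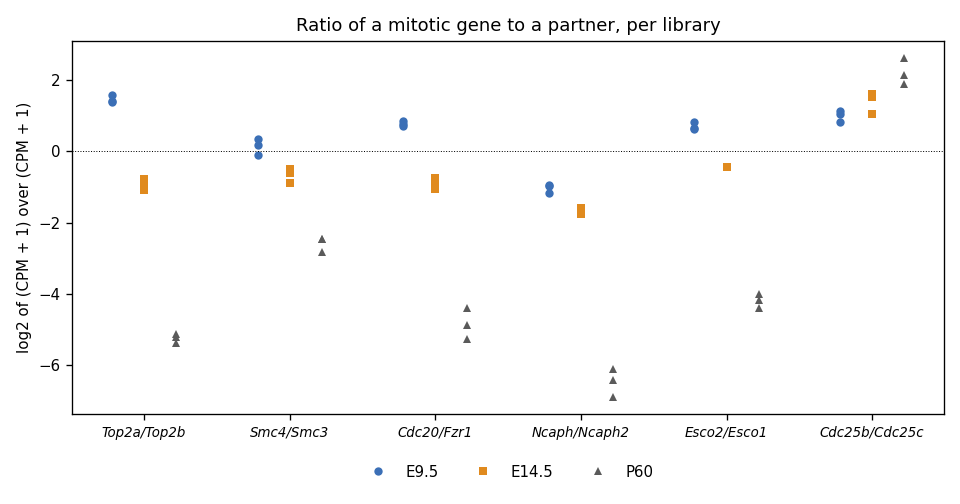
Log2 ratio of CPM + 1 between the members of 6 gene pairs in each library; circles are E9.5, squares E14.5 and triangles P60. The ratio of Top2a to Top2b is above 0 at E9.5 only, and 5 of the 6 ratios are lowest at P60, while the ratio of Cdc25b to Cdc25c is highest there.

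Most related genes outside the 51 were also called lower at each step, beside 30.7% of all genes at the first step and 39.4% at the second. Their lists are described by counts and medians, and differences between lists were not tested. All 12 mitotic kinesin genes fell at both steps, with median log2 fold changes of -1.63 and -5.58, the steepest being Kif18b, a microtubule depolymerase, at -7.92 at the second step. The P60 values of Kif18b rest on 0, 4 and 6 reads, which limits the precision of that figure. Of 15 genes of mitotic entry and its transcription factors, 12 fell and 1 rose at the first step, and 13 fell and 2 rose at the second. Those that fell included Mybl2, at -2.51 at the first step, and the cyclin A gene Ccna2 and the factor gene Foxm1, at -7.08 and -6.45 at the second. Those that rose were the MuvB subunit genes Lin52, at 0.48 and 1.22, and Lin37, called at the second step only, at 0.71. Other MuvB subunit genes on the list went the other way: Lin54 fell at both steps, at -1.07 and -0.89, and Lin9 was called at the second step only, at -2.05. Of 18 genes of DNA replication licensing and forks, 18 fell at the first step and 17 at the second, with medians of -2.14 and -3.19. Gins4, a subunit of the replicative helicase, was the exception at 0.59 at P60 against E14.5, with overlapping libraries. Beside these, the 51 genes had medians of -1.75 and -3.98, a description with no test of the difference.

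Other kinetochore and centromere genes fell with few exceptions. Of 17 outer kinetochore and checkpoint genes, 15 fell and 1 rose at each step. At the second step Knl1, the platform that Bub1 binds, and Sgo1, the protector of centromeric cohesin, had log2 fold changes of -7.60 and -6.72. Their P60 values rest on 1, 2 and 8 reads for Knl1 and on 5, 4 and 8 reads for Sgo1. The gene that rose was Zwint, a partner of Knl1 at kinetochores that is also known in rat to bind a synaptic SNARE protein. Zwint had 279, 266 and 258 CPM in the E9.5 libraries, 394, 359.9 and 329 CPM in the E14.5 libraries and 1714, 1662 and 1775 CPM in the P60 libraries, with log2 fold changes of 0.43 ± 0.13 (adjusted p = 0.014) and 2.25 ± 0.14 (adjusted p = 1.4e-07), and no stage overlapped another. Of 14 other centromere genes, 11 fell and 1 rose at the first step, the DNA-binding Cenpb at 0.54, and 12 fell and none rose at the second.

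The anaphase-promoting complex had the medians nearest to 0 among the related lists, -0.27 and -0.62. Of 18 genes for its subunits and partners, 6 fell and none rose at the first step, and the 33.3% that fell are near the 30.7% of all genes called lower. At the second step 12 fell, or 66.7%, beside 39.4% of all genes, and 4 rose. The steep falls were those of partners: Ube2c, its ubiquitin-conjugating enzyme, at -8.11 and Fbxo5, its inhibitor Emi1, at -3.86 at the second step. The P60 values of Ube2c rest on 6, 8 and 11 reads. The core subunit genes Anapc16, Anapc11 and Anapc13 rose by 1.18, 1.05 and 0.93, the last with overlapping libraries. Of 13 other condensin and cohesin genes tested, 9 fell and 2 rose at the first step, Hdac8 and Mau2. At most 1 of these 2 had libraries without overlap. At the second step 9 fell and 1 rose, Ncaph2, with overlapping libraries. The cohesin protector gene Cdca5, which encodes sororin, fell by 7.17 at the second step. Of 8 other cytokinesis genes, 6 fell and none rose at the first step, and 5 fell and 1 rose at the second, Rhoa at 0.44 with overlapping libraries. Cit, which encodes citron kinase, was not called at the second step, with 35, 58.8 and 17.2 CPM at P60, against 38.9, 37.9 and 36.4 CPM at E14.5.

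**Figure D5:**
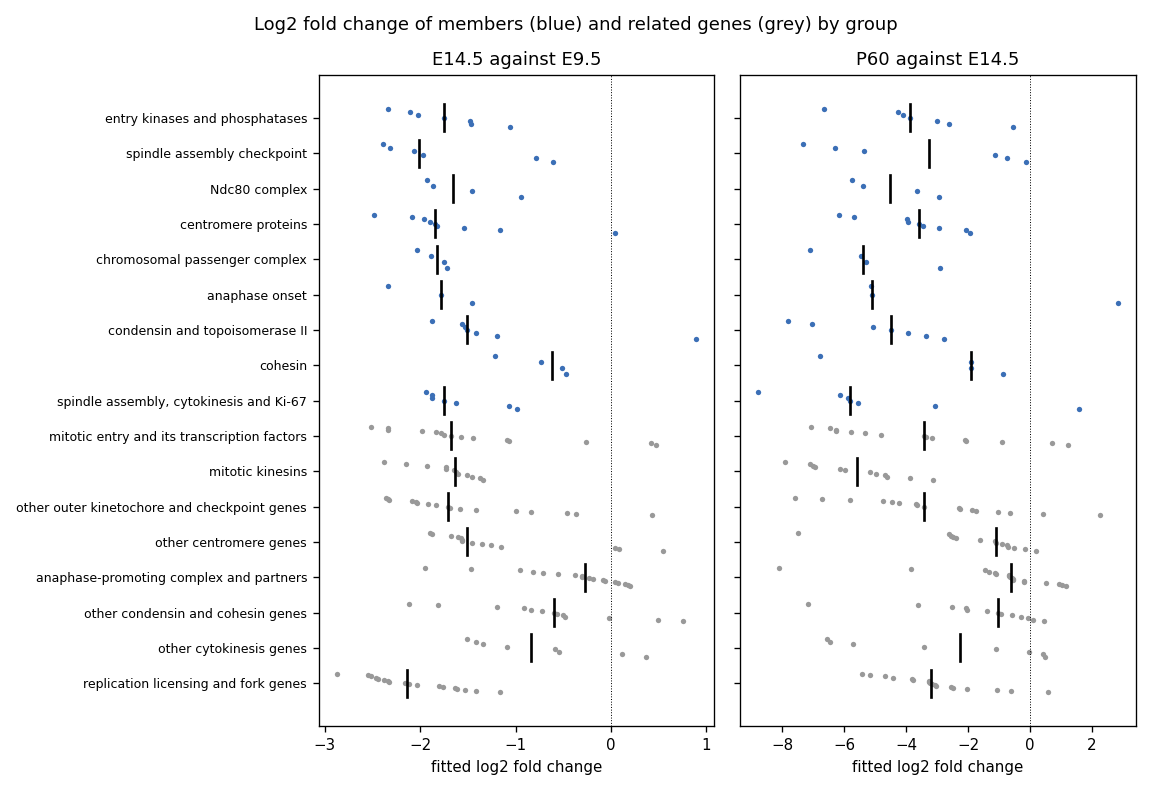
Fitted log2 fold change of each gene at E14.5 against E9.5 (left) and at P60 against E14.5 (right), by group; blue points are the 51 mitotic genes, grey points the related genes, and black bars the group medians. Replication genes and mitotic kinesins fall at both steps, while the medians of the cohesin group and of the anaphase-promoting complex lie nearer to 0.

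Of 6 markers of neural progenitors, the dividing cells of the embryonic brain, 1 fell and 1 rose at the first step, beside 30.7% and 34% of all genes, while 49 of the 51 mitotic genes fell. The 51 genes summed to 3859 to 4650 CPM at E14.5, against 10147 to 10249 CPM at E9.5. The progenitor markers, Sox2, Pax6, Nes, Vim, Hes1 and Hes5, summed to 1355 to 1979 CPM at E14.5, against 1316 to 1609 CPM at E9.5, and of these 6 only Vim was called higher and Hes1 lower. At P60 all 6 were lower than at E14.5, beside 39.4% of all genes, with a sum of 116 to 139 CPM. The 51 mitotic genes summed to 757 to 835 CPM at P60. None of the 6 was at 0 in any library. The 5 markers listed for oligodendrocyte precursors, the main dividing cells of the adult brain, summed to 189 to 294 CPM at P60, against 70.4 to 96.6 CPM at E14.5. Of the 5, 2 were called higher, or 40%, a share near the 36.7% of all genes. Whether that sum came from precursors or from other cells of their lineage was not tested. Other lists changed too: 5 astrocyte markers summed to 1332 to 1923 CPM at P60, against 200.2 to 316 CPM at E14.5, and 5 microglia markers to 380 to 418 CPM, against 56.1 to 64.6 CPM, each with all 5 called higher, beside 36.7% of all genes. Endothelial markers, 4 genes, summed to 123 to 131 CPM at P60, against 152 to 176 CPM at E14.5, and 5 mesenchyme markers to 61.9 to 90.4 CPM, against 337 to 669 CPM. Of the endothelial markers 3 were called lower and none higher. Of the mesenchyme markers 4 were called lower and 1 higher, beside 39.4% and 36.7% of all genes. No marker of these 5 lists was at 0 in any E14.5 or P60 library. The part of any of these cell types in the course of the mitotic genes was not tested.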

How the data were processed

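RNA of 9 libraries of mouse central nervous system was sequenced, 3 per stage. Per the submitters' processing notes, Trimmomatic 0.36 and STAR 2.5.2b with the mm10 build were used. The authors deposited raw read counts per Ensembl gene; the counting program, annotation and strand setting are not given in the sources used here. Per the labels' protocols, about 1 ng of RNA was amplified as cDNA by PCR, so counting intervals and floors cover counting error only.

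Each gene was tested with edgeR 4.0.16 in R 4.3.3 (scaling by TMM, low genes removed by filterByExpr with stage as the group, and 1 robust quasi-likelihood fit over the 9 libraries), adjusted by Benjamini-Hochberg over 17971 genes with a threshold of 0.05. TPM values used the exon length of GENCODE M21. The procedure was tested on simulated counts. DESeq2 1.42.0, limma 3.58.1, other scalings, no filter, a replicate block and omission of each library were tried. No columns were left out.

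The member genes, the other lists and the pairs were chosen with earlier results of these data known. Library values are given for the gene of each role group with the lowest and the highest P60 against E9.5 change, for genes higher or not called at P60 against E14.5 and for genes in pairs; a few more (Plk4, Mad2l1, Cenph, Birc5, Tacc3, Zwint, Cit) were named after their values were seen. Of 51 genes, 13 share exon bases with a gene on the opposite strand, at most 13.4% (Ncapg).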

Additional observations from a re-analysis of the deposited data

How the results depend on the processing

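Under 18 alternatives, 2715 of 2754 values of the 51 genes kept their direction and their side of the threshold, 33 lost their call and 6 turned sign. The 6 were values never called: Cenpt at E14.5 against E9.5, at -0.0441 under RLE scaling, -0.0278 with DESeq2 and -0.0368 without the first E14.5 library, and Bub3 at P60 against E14.5, at 0.0349 under upper quartile scaling, 0.0357 without the first E14.5 library and 0.0076 without the first library of both embryonic stages, an alternative added after seeing the data. The lost calls were those of Anln, Wee1, Mad1l1, Smc1a and Rad21. With any 1 library left out, 46 to 49, 47 to 48 and 49 to 50 of the 51 genes were called lower at the first step, at the second and over the whole interval, and 1, 2 and 1 higher. Among all genes the number called was 10516 to 12360, 12923 to 14139 and 14400 to 15549. Over the same omissions Cenpt at the first step ranged between -0.0368 and 0.0942, and Bub3 at the second between -0.2302 and 0.0357. The P60 minus E9.5 difference of the Cdc25b to Cdc25c ratio was 1.80 at a pseudocount of 0.25 CPM, 1.23 at 1 CPM and 0.348 at 4 CPM. The pseudocount weighs more on Cdc25c, near 1 CPM at P60.

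Scaling by library totals moved the median of all genes to 0.117 at E14.5 against E9.5 and to -0.199 at P60 against E14.5, and upper quartile scaling moved it to 0.204 at P60 against E9.5. All genes were then called 6483 higher and 5002 lower, 6089 higher and 7585 lower, and 7993 higher and 6856 lower, while 46, 48 and 49 of the 51 genes were called lower. The cause of the lost calls was not tested.

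With the replicate number as a block, 49, 48 and 50 of the 51 genes were called lower and 1, 2 and 1 higher, as without it. Deviations from the stage means correlated between -0.224 and 0.37 over 9 same-numbered pairs and between -0.413 and 0.34 over the other 18 pairs. Not every same-numbered pair was over 0.1, so the numbers were not taken to pair the libraries, although 6 of 9 libraries matched best a library of their own number, a hint from the data and not the design. For Plk4, Esco2, Mki67, Aurkb, Ttk and Ncapg, P60 values rest on 0 to 31 reads a library, which limits the precision of their fold changes.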
